A study of Mus musculus with 6 samples.

Results

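The transcriptome of MIN6 cells that had received a negative control siRNA was described from 3 of the 6 arrays of the series. These are the arrays titled as controls 1 to 3, called control replicates below. MIN6 is a beta cell line from insulinomas of mice that carried the SV40 large T antigen under the insulin promoter. Per the labels, the cells were transfected by nucleofection with Solution T and with RNAiMax, and total RNA was taken 72 hours later. The other 3 arrays hold MIN6 cells given an siRNA against Hlxb9 by the same route. They are used here to see whether a spread between the controls recurs elsewhere, and as an alternative set of arrays for the brightest genes and counts. RNA went on the arrays only where a western blot had shown strong Hlxb9 knockdown. The labels also call every sample sorted cells and name no gate. The design text speaks of independent transfections, and nothing ties an array to a culture of its own, so the spread between arrays may be partly technical.

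Beta cells make proinsulin in the rough endoplasmic reticulum, cleave it in dense granules and release it when glucose metabolism closes potassium channels and opens calcium channels. Islet hormone genes are each dominant in their own cell type in the adult islet, while insulinoma lines can express several. Pancreatic factors such as Pdx1, Neurod1 and Nkx2-2 keep the beta cell program active.

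Values are log2 signals after RMA. Each of 18193 genes was read by the probe set, annotated to that gene only, with the highest mean over the controls. Signal depends on the probes as well as on the transcript, so an order of genes is an order of signal and not of transcript amount. Array medians lay between 5.08 and 5.17. Over the 18193 genes r was 0.998 between controls 1 and 2, 0.992 between controls 1 and 3, and 0.993 between controls 2 and 3. Over all probe sets, identical values made up no more than 0.437% in a pair. Control replicate 3 thus stands somewhat apart, and results that rest on it are given with its values. Olfactory and vomeronasal receptor genes, 69 in number, served as genes taken to be silent. Their median was 2.90, and their 95th percentile, 4.20, is called the silent-gene level. The label MIN6 was checked on beta cell markers. Iapp, which encodes the peptide released with insulin, read 14.46, 14.32 and 14.47 on controls 1, 2 and 3, the order used for every set of 3 values below. Ins2, an insulin gene, read 13.83, 13.86 and 13.87. Its only probe set has the suffix _x_at, some of whose probes can bind other transcripts, so Ins1 may add to this reading. Chga, a granule protein, read 13.62, 13.60 and 13.75, and the factor Pdx1 read 12.09, 12.08 and 12.17. All 4 markers were far above the silent-gene level on every array, with SDs of 0.08, 0.02, 0.08 and 0.05 (n = 3). Since 1 group is described, no test was run, and a difference below is a description set against the spread between arrays.

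The promoters of 4 hormone genes are shown because hormone genes were among the brightest signals and because of the SD of 1 of them, Ppy. Its SD over the controls was the largest of genes whose mean was above the silent-gene level, clone and predicted gene names left out. Each runs from 250 bases before to 50 bases after the start site in RefSeq, build GRCm38.p6, in the gene's sense. Capitals mark the motifs searched on both strands: TATAAA, the letters of a TATA box, then TAATTA, a homeodomain core, then CATCTG, an E box, and lastly TGACGTCA, the cyclic AMP response element. Iapp lies at chr6:142298175-142298474 on the plus strand, Ppy at chr11:102101270-102101569 on the minus strand, Sst at chr16:23890795-23891094 on the minus strand and Gcg at chr2:62483604-62483903 on the minus strand.
Iapp: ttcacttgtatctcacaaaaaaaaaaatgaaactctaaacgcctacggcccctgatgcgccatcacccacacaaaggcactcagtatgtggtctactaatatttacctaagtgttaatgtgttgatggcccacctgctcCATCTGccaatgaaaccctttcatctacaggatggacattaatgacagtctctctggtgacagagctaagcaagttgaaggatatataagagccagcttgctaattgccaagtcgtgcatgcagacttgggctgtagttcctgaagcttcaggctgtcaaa
Ppy: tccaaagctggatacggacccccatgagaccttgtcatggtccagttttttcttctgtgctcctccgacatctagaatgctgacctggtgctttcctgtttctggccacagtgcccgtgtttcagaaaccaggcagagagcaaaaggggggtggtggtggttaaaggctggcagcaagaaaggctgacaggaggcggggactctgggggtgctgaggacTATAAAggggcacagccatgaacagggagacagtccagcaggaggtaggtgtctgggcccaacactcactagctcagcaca
Sst: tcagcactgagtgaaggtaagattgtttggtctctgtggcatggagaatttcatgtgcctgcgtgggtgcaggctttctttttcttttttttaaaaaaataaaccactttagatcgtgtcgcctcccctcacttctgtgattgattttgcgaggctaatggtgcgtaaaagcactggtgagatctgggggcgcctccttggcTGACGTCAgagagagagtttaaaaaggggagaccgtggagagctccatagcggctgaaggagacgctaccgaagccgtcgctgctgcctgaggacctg
Gcg: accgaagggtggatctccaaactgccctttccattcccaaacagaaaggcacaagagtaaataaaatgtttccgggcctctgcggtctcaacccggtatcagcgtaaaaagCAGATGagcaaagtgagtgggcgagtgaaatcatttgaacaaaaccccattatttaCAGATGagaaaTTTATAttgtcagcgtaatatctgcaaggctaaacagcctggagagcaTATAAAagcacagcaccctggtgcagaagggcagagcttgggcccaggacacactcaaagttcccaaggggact

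The Iapp window holds an E box 111 bases before the start site, and the Ppy window a TATA box 31 bases before it. The Sst window holds a cyclic AMP response element 48 bases before the start. The Gcg window holds a TATA box in its own sense 24 bases before the start, a further match on the other strand, and 2 E boxes. A promoter entry was matched for 14367 of the 18193 genes. Of 32851 promoters of this length in the table, 17.2% hold CATCTG, 13.6% TATAAA, 5.29% TAATTA and 1.79% TGACGTCA. In the 18006 promoters of measured genes the shares were 13.4% for CATCTG and 9.75% for TATAAA. In the 11042 promoters of genes above the level but outside the brightest 10.0% they were 11.9% and 7.38%. Of the 24 promoters of hormone and neuropeptide genes that were above the silent-gene level, 10 hold CATCTG (41.7%) and 5 TATAAA. Several of these promoters belong to the same gene, and a match is a run of letters, not a shown site. Ins2 had no promoter entry and is not among the 24. CG dinucleotides also differed in number between the groups of promoters. The median was 5 in genes not above the level on any array (4213 promoters), 19 in genes above it but outside the brightest 10.0% (11042 promoters), and 23 in the brightest 10.0% (1936 promoters). The 24 hormone and neuropeptide promoters had a median of 7.5, between that of the genes not above the level and that of the genes above it.

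**Figure D1:**
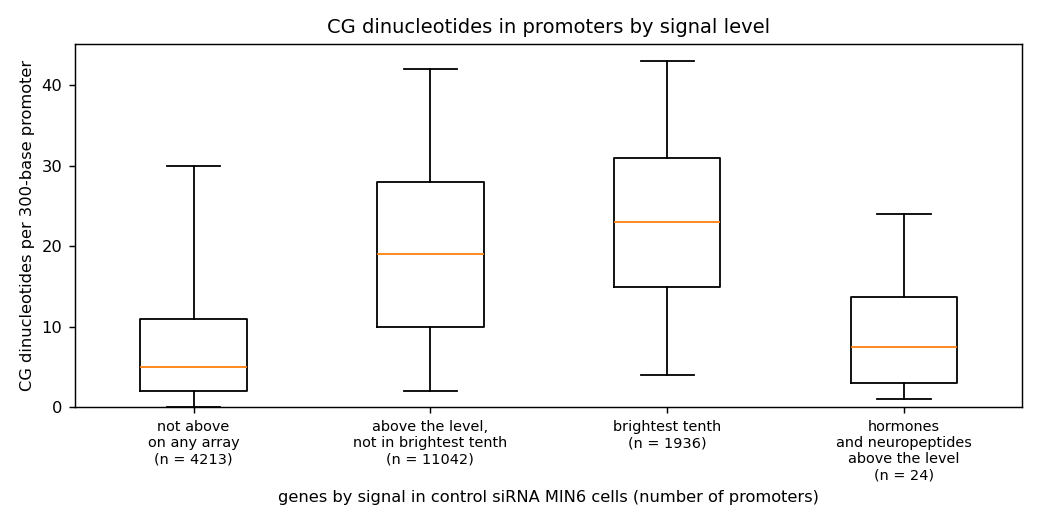
Number of CG dinucleotides per 300-base promoter (y axis) for genes grouped by signal in the control cells (x axis); boxes span the quartiles with the median as a line, and whiskers the 5th to 95th percentile. The median is 5 for genes not above the silent-gene level, 19 and 23 for the groups above it, and 7.5 for the hormone and neuropeptide genes above it.

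A gene was counted as above the silent-gene level when all 3 controls exceeded it. This held for 12487 genes, 68.6% of those measured. A further 914 genes were above it on 1 or 2 arrays and 4792 on none. Gene means ran from 2.30 to 14.42 with a median of 6.997, and the brightest 10.0% (1819 genes) began at 11.01. Of the silent receptor genes, 3 lay above the level by construction, the highest being Vmn2r29 at 6.92. The count of genes depends on the probe set read: among the 7524 counted genes with several probe sets, 3012 (40.0%) had another probe set whose mean was not above the level. A gene not above the level may still be transcribed, since a probe set can read poorly.

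**Figure D2:**
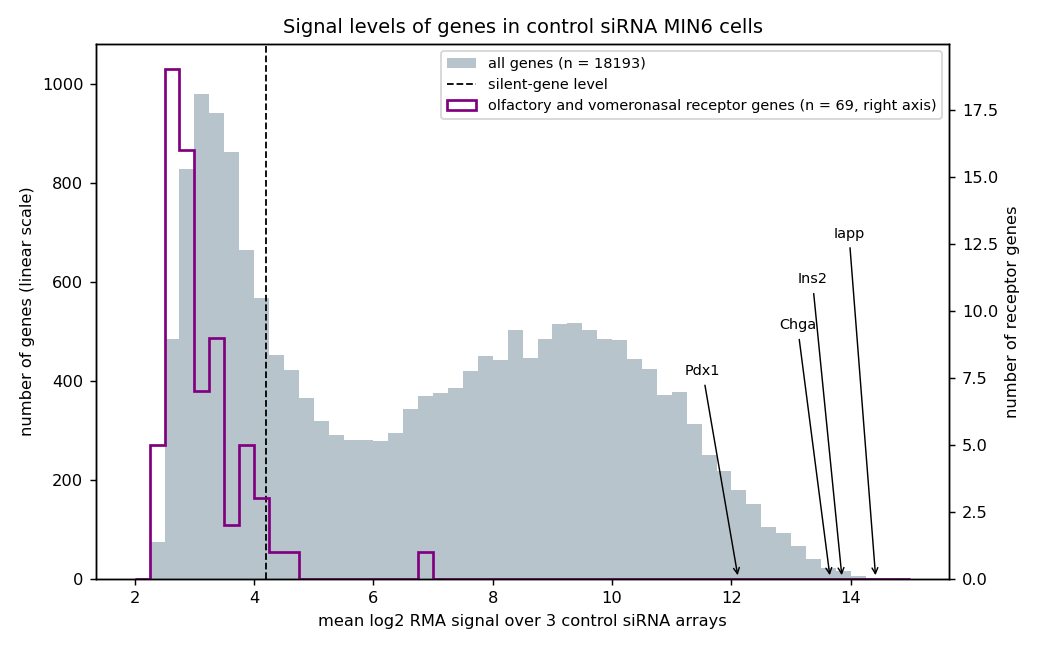
Histogram of the mean log2 RMA signal over the 3 control arrays (x axis) for all 18193 genes (grey, left axis, number of genes) and for the 69 silent receptor genes (purple outline, right axis); the dashed line is the silent-gene level of 4.20. Genes form a low mode below the line and a broad mode above it, and arrows mark Pdx1, Chga, Ins2 and Iapp at 12.11, 13.65, 13.85 and 14.42.

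Iapp ranked first by mean among the 30 brightest genes, although on control 2 Rpl41 read higher, at 14.41 against 14.32. A set of 12 encode ribosomal proteins, from Rpl41 (mean 14.39) and Rpl13a (14.13) to Rpl11 (13.67), and 5 encode parts of the respiratory chain or ATP synthase, namely Cox7a2, Cox5b, Atp5g3, Ndufv3 and Ndufb11. Peptide hormone and granule genes among them were Iapp, Npy, Ins2 and Chgb, and the list also held Ttr, the transthyretin gene, which alpha and beta cells express. The remainder were Mrfap1, Vdac1, Pebp1, the elongation factor Eef1a1, the superoxide dismutase Sod1, Krtcap2, Tmsb10 and Atp6ap2, with the ribosomal genes Rplp2, Rpl35, Rps29, Rpl38, Rpl27, Rpl4, Rps3a1, Rps28 and Rpl7a completing the 12. This order rests on the probe sets: 10 of the 30 were read by sets with the suffix _x_at, some of whose probes can bind other transcripts. With plain _at sets alone, which leaves out genes that have none, 8 of the 30 remained. Ribosomal protein genes then numbered 3 (Rpl19, Rpl27a and Rpl22) in place of 12. Chga, Scg2, Igf2, Ero1b, Resp18, Scg3, Sst and G6pc2 were among those that entered, named after their values were seen. With the mean over a gene's probe sets 18 remained.

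Of the hormones of islet and gut, 12 of 12 measured genes were above the level (68.6% of all genes), 6 of them in the brightest 10.0% of genes, with a median of 10.29 against 6.997 over all genes. Besides Iapp and Ins2, Cck, the cholecystokinin gene, read 13.59, 13.46 and 13.39. Sst, which encodes the delta cell hormone somatostatin, read 13.30, 13.16 and 12.91. Gcg, the proglucagon gene of alpha cells, read 12.89, 12.95 and 13.15. These 3 genes are thus bright on all arrays of a beta cell line, with SDs of 0.10, 0.19 and 0.14 (n = 3). Sct, the secretin gene, read 11.96, 11.62 and 11.31. The lowest members were Ghrl, Gip and Nts, which encode ghrelin, GIP and neurotensin, with means of 5.30, 5.30 and 5.14. These means were under the 99th percentile of the silent genes, 5.32. Ppy, the pancreatic polypeptide gene, read 9.86, 9.68 and 7.32, so that control replicate 3 was lower than the others by far more than they differed from each other. In RNA from a culture, a few cells with much of a transcript and many cells with little of it cannot be told apart. The gene Ins1 was not analysed here.

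Among neuropeptides and local peptides 9 of 14 were above the level (64.3%, against 68.6% of all genes), with a median of 6.42. Npy, the neuropeptide Y gene, had 1 of the smallest spreads of all list members, with 13.88, 13.87 and 13.86. Pdyn, the prodynorphin gene, read 12.74, 12.84 and 12.55. Cartpt, the CART prepropeptide gene, read 12.39, 11.95 and 11.37, and its SD of 0.51 exceeded the 95th percentile of all genes above the level, 0.49. Ucn3, a marker of mature beta cells, read 8.72, 8.30 and 7.52. The lowest were Nmu, Trh and Vip at 3.32, 2.97 and 2.94, all under the silent-gene level on every array.

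Genes of the secretory granule were bright. All 16 measured members were above the level (68.6% of all genes), 12 were in the brightest 10.0%, and the median was 12.64. Chgb, a chromogranin, read 13.88, 13.91 and 13.84. The secretogranins Scg2 and Scg3 and the granule protein Resp18 had means of 13.54, 13.17 and 13.35, and Scg5, the chaperone of a prohormone convertase, 13.01. The zinc transporter Slc30a8 and the convertase Pcsk1 were above the level on every array. The lowest were the monoamine transporters Slc18a1 and Slc18a2 at 7.95 and 5.39 and the amidating enzyme Pam at 7.39. The exocytosis list was also above the level throughout (14 of 14, median 11.13), led by the SNARE gene Snap25 (12.34, 12.10 and 11.93), Rph3al, Syt4, Cplx2, Rab3a and Sytl4. Its lowest members were Syt5, Unc13a and Cplx1 at 7.76, 7.52 and 6.16.

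Protein folding and entry into the endoplasmic reticulum was bright as well. Of its members 17 of 17 were above the level (68.6% of all genes), with 15 in the brightest 10.0% and a median of 12.66. Ero1b, an oxidase of the beta cell reticulum, read 13.47, 13.47 and 13.56. Ssr4, Calr, Sec61b, Sec61a1 and P4hb had means between 13.06 and 13.24. Hspa5, the chaperone BiP, had the smallest spread of the list members above the level, at 12.94, 12.95 and 12.94. Pdia4 read only 6.96. Ribosomal proteins (14 of 14 above, median 13.17) and the respiratory chain with ATP synthase (20 of 20 above, median 12.36) were in the same range. Rpl37 at 4.91 and Cox7c at 6.40 were low readings in those lists, each from its brightest or only probe set. Whether these low readings come from the probe sets or from the transcripts cannot be told apart here. With plain _at sets alone 7 ribosomal and 12 respiratory genes were above the level. Genes with no such set were left out of these counts, not found below the level.

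All 16 measured beta cell transcription factors were above the level (68.6% of all genes), 7 in the brightest 10.0%, with a median of 10.69. Isl1, a LIM homeodomain factor, read 12.45, 12.38 and 12.46. Neurod1, a basic helix-loop-helix factor, read 12.00, 11.95 and 12.13, and the zinc finger factor Myt1 12.00, 11.94 and 12.03. Pax6 and the glucose-responsive factor Mlxipl followed at means of 11.28 and 11.16. No member of this list had a range of 1 log2 or more over the arrays. The lowest were Foxa2, Mnx1 and Foxa1, with means of 9.06, 7.70 and 7.43. Mnx1, the current symbol of Hlxb9, the gene targeted on the other arrays of the series, read 7.82, 7.50 and 7.77 in these controls.

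Factors of other islet or gut lineages or of islet development gave 8 of 17 above the level (47.1%, against 68.6% of all genes). Their median was 4.23. Bhlha15 (Mist1), known from acinar and other secretory cells, read 10.28, 10.22 and 10.21. Cdx2, a factor of the intestinal epithelium, read 10.14, 10.10 and 9.66. These 2 genes stood more than 2 log2 above the next member, Gata4 at 7.16, and each has a second probe set that read low, at 3.34 for Bhlha15 and 4.38 for Cdx2. Prox1, Irx2 and Pax4 had means of 6.91, 6.83 and 6.21. Neurog3, Sox9, Ptf1a, Gata6 and Nr5a2 were not above the level. Onecut1, Hhex and Sox17 were the lowest, at 3.38, 3.13 and 2.93.

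**Figure D3:**
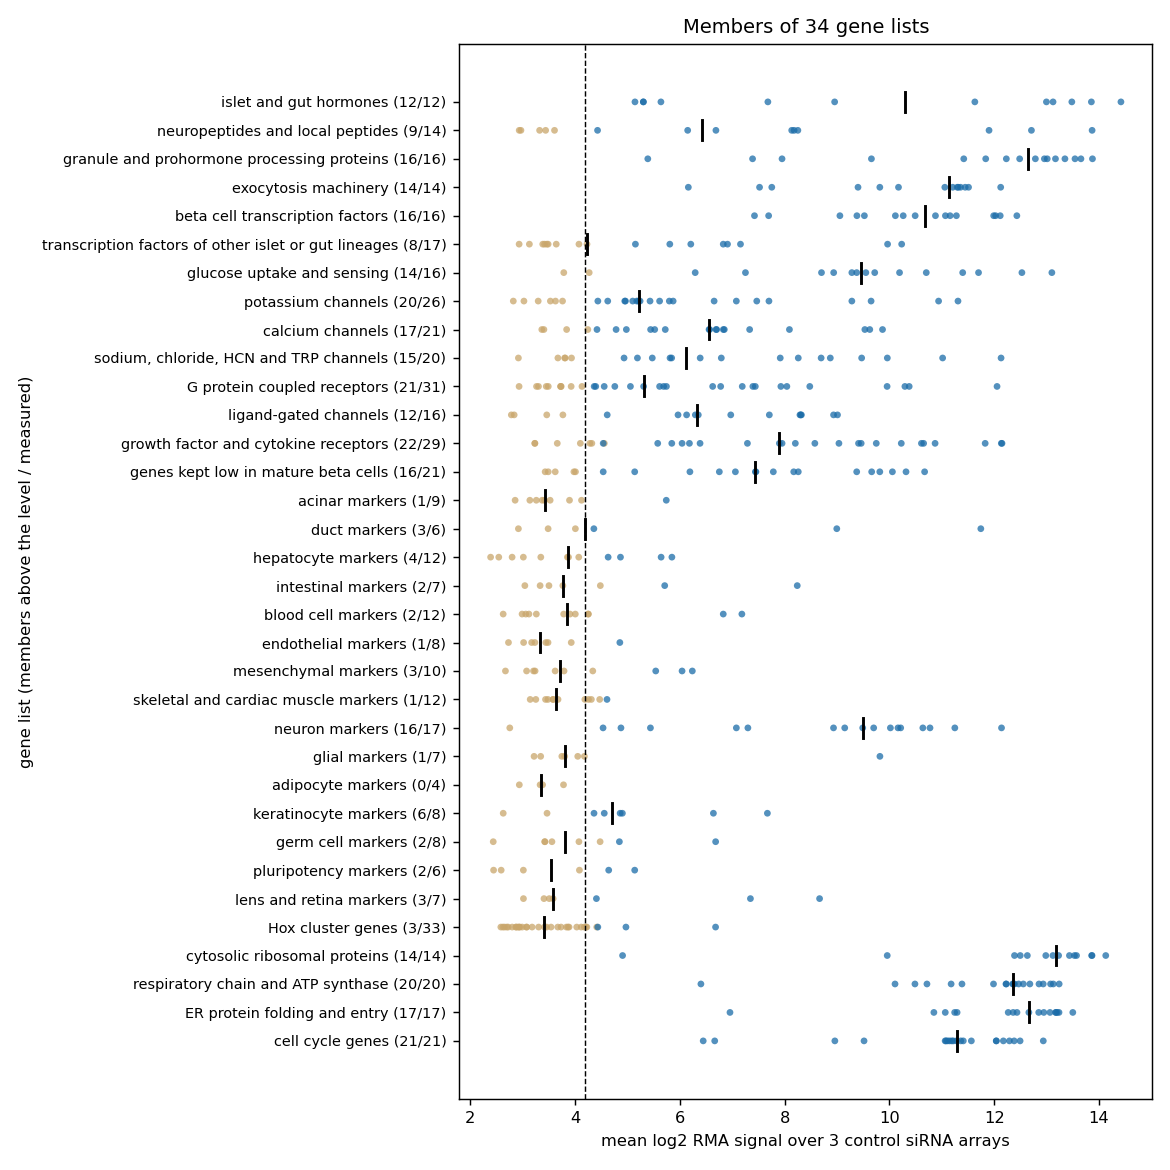
Each point is the mean log2 RMA signal over the 3 control arrays (x axis) of 1 measured member of a gene list (y axis, with members above the level over members measured); blue points are above the silent-gene level (dashed line, 4.20) on all 3 arrays, tan points are not, and black ticks are list medians. Granule, ribosomal, respiratory and reticulum lists centre between 12.36 and 13.17, most lists of other tissues centre left of the line, and single points such as Krt7 at 11.74 and Mbp at 9.82 stand far to the right of their lists.

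Of 16 genes for glucose uptake and sensing, 14 were above the level (87.5%, against 68.6% of all genes), with a median of 9.46. G6pc2, the islet glucose-6-phosphatase subunit, read 13.16, 12.98 and 13.16, and Abcc8, the sulfonylurea receptor of the ATP-sensitive potassium channel, 12.41, 12.38 and 12.80. Gpd2, of the glycerol phosphate shuttle, and the glucose transporter Slc2a1 had means of 11.70 and 11.40. Slc2a2, the transporter of rodent beta cells, was singled out after its values were seen: it read 9.21, 9.27 and 10.17, highest on control replicate 3. The hexokinase genes Hk3 and Hk2 read 6.29 and 4.27, and Slc2a4, the insulin-dependent transporter, 3.79.

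Of genes that mature beta cells keep low, 16 of 21 were above the level (76.2%, against 68.6% of all genes), with a median of 7.44 near the 6.997 of all genes and 0 members in the brightest 10.0%. Ldha, lactate dehydrogenase, read 10.72, 11.28 and 10.01, with an SD of 0.64. Slc16a1, the monocarboxylate transporter, read 10.37, 10.43 and 10.16. Oat, Acot7, Igfbp4 and Hk1 had means of 10.06, 9.82, 9.66 and 9.38. Igf1, Mgll and Zfp36l1 were the lowest at 3.62, 3.49 and 3.43. With plain _at sets 10 members were above the level, and members that have no such set were left out.

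Cell cycle genes, inhibitors of division included, were above the level in 21 of 21 cases, against 68.6% of all genes. Of these 21, 17 were in the brightest 10.0%, and the median was 11.28. Pcna, the replication clamp, read 12.93, 12.96 and 12.91. Mki67, the proliferation marker, read 12.36, 12.38 and 12.40. Ccna2, Mcm7 and the inhibitor Cdkn2c had means of 12.29, 12.17 and 12.04. Among the cyclin D genes, Ccnd2 read 12.66, 12.62 and 12.20, while Ccnd3 and Ccnd1 were the lowest members at 6.67 and 6.45. Cdkn2a, an inhibitor that accumulates with age in islets, read 8.96.

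Ion channels carry the electrical activity that triggers release. Of potassium channels 20 of 26 were above the level (76.9%, against 68.6% of all genes), with a median of 5.23. Kcnk1 read 11.36, 11.33 and 11.24, Kcnh1 11.02, 11.01 and 10.78, and Kcnma1 9.70, 9.68 and 9.57. Kcnj11, the pore of the ATP-sensitive channel, read 9.18, 9.24 and 9.43. The lowest, Kcna1, Kcna5 and Kcnk2, were at 3.30, 3.03 and 2.82. Many potassium channel readings were just above the level, and with the 99th percentile of the silent genes, 5.32, as the level 11 remained above it.

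Of calcium channels 17 of 21 were above the level (81.0%, against 68.6% of all genes, median 6.56). The auxiliary subunit Cacna2d1 read 9.91, 9.73 and 9.97. The L-type pore genes Cacna1d and Cacna1c read 9.75, 9.67 and 9.46, and 9.72, 9.61 and 9.26. Cacna1h, a T-type pore gene, had a mean of 8.09. Cacna2d3 and the muscle genes Ryr1 and Cacna1s were under the level at 3.84, 3.41 and 3.37. Sodium, chloride, HCN and TRP channels gave 15 of 20 above the level (75%, against 68.6% of all genes, median 6.12). They were led by Clcn3 at 12.27, 12.13 and 11.99 and by Lrrc8a, a volume-regulated anion channel subunit, at 11.20, 11.12 and 10.73. Trpm5, a calcium-activated cation channel, read 9.93, 10.06 and 9.90. The lowest were Ano1, Scn2a and Cftr at 3.80, 3.67 and 2.92.

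Of G protein coupled receptors 21 of 31 were above the level (67.7%, against 68.6% of all genes), with a median of 5.31. Oxtr, the oxytocin receptor, read 12.23, 12.28 and 11.66 and was the only member in the brightest 10.0%. Sstr3, a somatostatin receptor, read 10.25, 10.57 and 10.31. The galanin receptor Galr1 read 10.36, 10.37 and 10.16, and Ffar2, a receptor for short-chain fatty acids, 9.74, 10.07 and 10.06. On the probe sets read, transcripts for both a ligand and a receptor were thus bright in the same cultures for Sst and Sstr3. The second probe set of Sstr3, however, had a mean of only 4.47. Unlike its receptor gene Galr1, Gal, the galanin gene, named after its values were seen, read only 4.36, 4.48 and 4.46. Glp1r, the incretin receptor, was singled out after its values were seen: it read 7.82, 7.87 and 6.63, lower on control replicate 3 by more than 1 log2. Gipr and Gcgr were above the level, while Chrm3 and Sstr2 were not. Npy1r, Crhr2 and Sstr1 were the lowest, at 3.30, 3.27 and 2.93. With the 99th percentile as the level 13 members remained above it.

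Ligand-gated channels gave 12 of 16 above the level (75%, against 68.6% of all genes, median 6.32). The purinergic channel P2rx4 read 8.80, 8.93 and 9.30. The AMPA receptor subunit genes split: Gria2, Gria4 and Gria3 had means of 8.93, 8.32 and 7.71, and Gria1 read 2.84. The NMDA receptor genes Grin2c and Grin2a read 3.46 and 2.79. Growth factor and cytokine receptors gave 22 of 29 above the level (75.9%, against 68.6% of all genes, median 7.90). Ghr, the growth hormone receptor, read 12.17, 12.16 and 12.11. Ntrk2, the BDNF receptor, read 12.07, 12.20 and 12.13. Il1r1, the interleukin-1 receptor, read 12.23, 11.92 and 11.34. Fgfr2, Igf1r and Igf2r followed with means of 10.87, 10.65 and 10.61. Lepr was not above the level, and Kdr and Kit were the lowest, both at 3.23.

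Of neuron genes 16 of 17 were above the level (94.1%, against 68.6% of all genes), with a median of 9.49. Beta cells and neurons share many of these genes. Nefl, a neurofilament, read 11.95, 12.27 and 12.20, and Map2 and Syn1 had means of 11.25 and 10.77. Uchl1 and Stmn2 read 10.64 and 10.22, and Th, tyrosine hydroxylase, read 10.06, 9.80 and 10.64. The 2 glutamate decarboxylase genes differed in signal. Gad1 was the lowest member, at 2.60, 2.73 and 2.93, and Gad2, named after its values were seen, was at 9.90, 9.73 and 8.84. Both enzymes make the transmitter GABA from glutamate. Both probe sets of Gad1 were under the level.

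Lists of 14 other tissues and lineages held 116 distinct genes, of which 31 were above the level (26.7%, against 68.6% of all genes) and 85 were not. Only 1, Krt7, lay in the brightest 10.0%. With the 99th percentile as the level 18 of the 116 remained above it, against 59.8% of all genes, and with the level set anew without control replicate 3 there were 41. Acinar genes gave 1 of 9 (Cela1 at 5.74, with Reg1, Pnliprp1 and Ctrb1 lowest at 3.26, 3.14 and 2.86), endothelial genes 1 of 8 (Vwf at 4.86), muscle genes 1 of 12 (Tnnt2 at 4.61) and adipocyte genes 0 of 4. Blood cell genes gave 2 of 12, Fcer1g at 7.18 and Cd68 at 6.83, while Ptprc, the CD45 gene of white blood cells, was not above the level. Mesenchymal genes gave 3 of 10, with Col1a1, Pdgfrb and Vim at 6.24, 6.04 and 5.54. Hepatocyte genes gave 4 of 12, none over Apoa1 at 5.85, and intestinal genes 2 of 7, with Tff3 at 8.24 and Vil1 at 5.71. Germ cell genes gave 2 of 8, pluripotency genes 2 of 6, lens and retina genes 3 of 7, and keratinocyte genes 6 of 8. In these 4 lists Prm1, Lin28a, Rom1 and Krt10 were highest, at 6.68, 5.14, 8.67 and 7.67. These small counts move with the array and the level. Without control replicate 3 the count was 4 for muscle, 4 for blood cell and 2 for acinar genes, and without control replicate 1 it was 3 for muscle genes. With the 99th percentile it was 0 for muscle, endothelial and pluripotency genes, 1 for germ cell genes, and 2 each for hepatocyte and keratinocyte genes. On averaging probe sets it was 3 for keratinocyte genes, 1 for germ cell genes and 0 for muscle genes. With plain _at sets it was 1 for germ cell genes.

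Duct and glial genes each had a bright member on its own. Krt7, a keratin of duct epithelium, read 11.64, 11.82 and 11.77 from its only probe set, whereas the duct genes Krt19, Sox9 and Cftr were at 4.01, 3.49 and 2.92. Car2, carbonic anhydrase, read 8.94, 9.27 and 8.78. Mbp, the myelin basic protein gene, read 9.77, 9.74 and 9.94 from 1 of 8 probe sets, and the other 7 read between 3.04 and 6.33. No other glial gene was above the level, with plain _at sets the glial count was 0, and without control replicate 3 it was 2. Hox genes, which pattern the body axis, were low as a group: 3 of 33 were above the level (9.09%, against 68.6% of all genes). These were Hoxa7 at 6.51, 6.91 and 6.63, Hoxc6 at 4.97 and Hoxb13 at 4.44. The lowest, Hoxa11, Hoxd1 and Hoxb2, were at 2.66, 2.62 and 2.58. Without control replicate 3, the count of Hox genes above the level then recomputed was 7.

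The spread between the arrays was small for most genes. Over the 12898 genes whose mean was above the level, the median SD was 0.17, and 25.7% had an SD under 0.1. The list members above the level with the smallest SDs were Hspa5, Npy, Rps6, Rpl7 and Rpl4, each about 0.01. The spread fell mostly between control replicate 3 and the others: the median difference between controls 1 and 2 was 0.11, between 1 and 3 it was 0.27, and between 2 and 3 it was 0.23. A range of 1 log2 or more was seen in 460 genes (3.57%), and the array farthest from the other 2 was control replicate 3 in 406 of them, control 1 in 41 and control 2 in 13. Without control replicate 3 the count was 13, without control replicate 1 it was 239, and without control replicate 2 it was 372. A range over 2 arrays cannot exceed that over the same 3, so a lower count follows in part by construction.

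**Figure D4:**
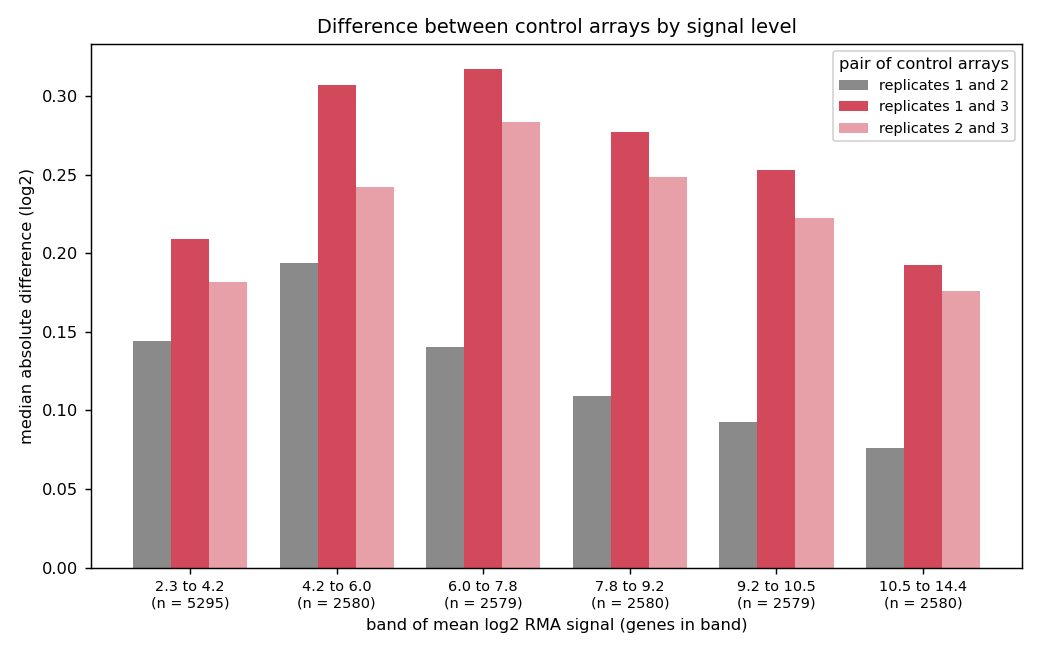
Median absolute log2 difference between 2 control arrays (y axis) in bands of mean log2 RMA signal (x axis, with the number of genes in each band); grey bars compare replicates 1 and 2, red bars 1 and 3, pink bars 2 and 3. In each band the pairs that include replicate 3 differ more, by 0.19 and 0.18 against 0.08 in the brightest band.

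A control differed from both others by 1 log2 or more in the same direction as follows. Control 3 was higher for 61 genes (0.473%) and lower for 106 (0.822%). Control 1 was higher for 4 genes (0.031%) and lower for 1 (0.00775%), and control 2 was higher for 2 (0.0155%) and lower for 0 (0.0%). With quantile normalization repeated over the controls, control 3 was higher for 91 and lower for 91, so the balance of directions depends on the scaling. Other probe sets of the same genes, where above the level, had control 3 higher than both others in 32 of 41 cases for the first group (78.0%, against 35.4% of all other probe sets) and lower in 60 of 85 for the second (70.6%, against 48.9%). Control 3 also differed in signal from the ends of control transcripts. The probe set at the 3' end of Gapdh exceeded that at the 5' end by 0.78, 0.65 and 2.13 log2 on controls 1, 2 and 3, that of beta-actin by 2.69, 2.41 and 3.22, and that of the dap spike by 5.10, 5.00 and 7.09. For the lys spike the excess was 4.93, 4.95 and 5.60, and for the thr spike 6.03, 6.07 and 6.70. For the phe spike it was 5.065, 4.667 and 5.197, so that control 3 differed from control 1 by less than controls 1 and 2 differed. The part of this in the gene differences was not tested.

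Clone and predicted gene names were left out of the ranking by SD. Among the 15 genes with the largest SD, 13 were lowest on control replicate 3 and 2, Cotl1 and Mup10, were highest there. Ppy, given above, led with an SD of 1.42. Dlk1, an imprinted Notch ligand homologue found in beta cells, read 8.44, 7.20 and 5.71. The cadherin gene Cdh13 read 7.36, 6.72 and 4.89. Dusp5, a MAP kinase phosphatase, read 11.37, 10.95 and 9.04, and the hyaluronan receptor gene Cd44 read 8.59, 8.17 and 6.31. Cotl1, an actin-binding protein gene, read 6.21, 6.11 and 8.37. For these 6 genes control replicate 3 was the extreme array, and for Dlk1 controls 1 and 2 also differed by more than 1 log2. Tmem120a, Pknox1, Rabac1, Rab11fip1, Fam163a, Pcp4l1, Ptchd4 and Mucl2 made up the rest, with SDs between 1.04 and 1.13.

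The arrays given Hlxb9 siRNA show whether such a spread is seen in another set of 3. A range of 1 log2 or more was found there too for Ppy, Dlk1, Cdh13, Fam163a, Pcp4l1 and Mucl2, and not for the other 9. Ppy read 10.95, 10.76 and 8.55 on Hlxb9 siRNA replicates 1, 2 and 3, Dlk1 8.49, 7.04 and 5.39, and Cdh13 7.45, 6.80 and 4.92. In these 3 genes replicate 3 was the lowest in both groups. Dusp5 read 10.59, 10.84 and 10.64, Cd44 8.32, 8.40 and 8.16, and Cotl1 6.29, 6.44 and 6.51, without such a gap. Of the 460 control genes with a range of 1 log2 or more, 69 (15%) had one among the Hlxb9 siRNA arrays as well. These 69 are 49.6% of the 139 genes with that range in the Hlxb9 siRNA group, which are 1.08% of the 12898. The lowest array carried the same number in both groups for 65 of the 69 genes, and it was number 3 for 56. The labels do not say that a number marks a shared day or culture.

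**Figure D5:**
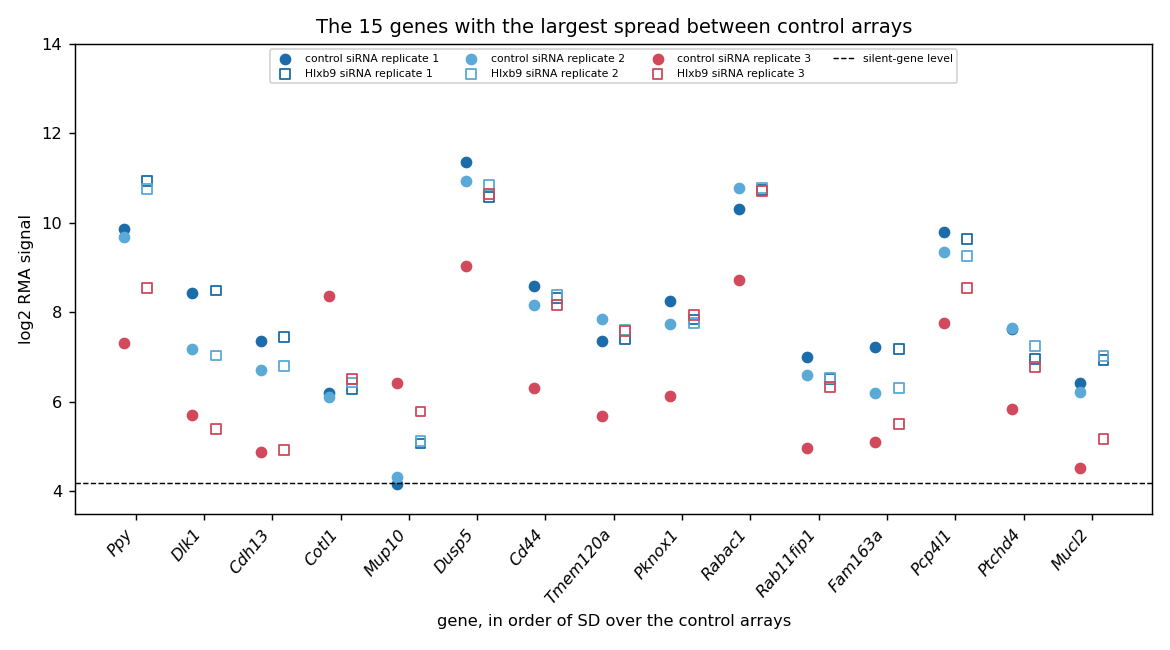
Log2 RMA signal (y axis) of the 15 genes with the largest SD over the control arrays (x axis, in order of SD) on each control siRNA array (filled circles) and each Hlxb9 siRNA array (open squares), coloured by replicate number; the dashed line is the silent-gene level of 4.20. Replicate 3 is lowest in both groups for Ppy, Dlk1 and Cdh13, while Dusp5, Cd44 and Cotl1 depart on control replicate 3 and not on Hlxb9 siRNA replicate 3.

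Of the 347 list genes with a mean above the level, 28 had a range of 1 log2 or more (8.07%, against 3.57% of all such genes), 20 with control replicate 3 lowest and 8 with it highest. They fell in the hormones (Ppy and Pyy), the neuropeptides (Cartpt, Ucn3 and Tac1), the exocytosis genes (Vamp2 and Stx1a) and the receptors, among others, and are named here after their values were seen. For 11 of the 28 the Hlxb9 siRNA arrays had such a range too. Cartpt, for example, read 12.48, 12.06 and 11.42 there, and Ucn3 9.31, 8.85 and 8.14, with the lowest value on replicate 3 in both groups. No gene of the beta cell factor, ribosomal, respiratory, reticulum or cell cycle lists had such a range. These lists are bright, and bright genes had such a range less often. It was seen in 0.814% of genes with means of 10.52 to 14.42 and in 5.23% of those with means of 4.20 to 6.04. Whether these lists vary less than other genes of their signal was not tested.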

How the data were processed

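Gene expression was measured on Affymetrix mouse arrays from 6 ug of total RNA per sample. The values are deposited on a log2 scale, and the tools per the submitters' processing notes are RMA and Partek, with versions and settings not given in the sources used here. RMA corrects background, normalizes arrays by quantiles and summarises probes, which brings array distributions together and compresses low signals. There is no depth to give for arrays, and having 3 of them limits precision.

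After 64 control probe sets were set aside, 45037 remained. The platform annotation gives 1 gene for 34945, several for 932 and no name for 9160. Entrez identifiers of 34741 matched RefSeq (GRCm38.p6), and 0 symbols changed. A gene was read by its 1-gene probe set with the highest mean over the 3 controls. The silent-gene level, SDs, ranges and list counts were computed with Python 3.11.15, pandas 2.3.3 and numpy 2.4.6, and the counting of departing arrays was checked on simulated data. Errors are SDs with n = 3, or n = 2 where 1 array is left out, and no test was run.

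The genes, the 34 lists (507 of 572 entries matched) and the counts were chosen with earlier results of these data known. Named are 4 markers, the 30 brightest genes, up to 6 highest and 3 lowest members per list (others as above or not above the level), the 15 genes with the largest SD, the 5 list members above the level with the smallest, and up to 6 genes per direction on which control replicate 3 departs most. Clone and predicted gene names were skipped in the rankings by brightness, largest SD and departure. Genes outside this rule are said to be so where singled out. Alternatives were the level's percentile or reference, the probe set read, repeated quantile normalization or centring, an offset of 32, filters, thresholds, and each array left out. The Hlxb9 siRNA arrays in place of the controls were a further alternative.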

Additional observations from a re-analysis of the deposited data

Results flagged for a closer look

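Probe sets that name no single gene enter no result above, and many of them carried signal. Of the 9160 probe sets without a gene name in the annotation, 2967 (32.4%) exceeded the silent-gene level on all 3 controls, 137 of them within the range of the brightest 10.0% of genes, and the highest had a mean of 14.21. Of the 932 annotated to several genes, 630 exceeded it. What these probe sets read was not examined.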

How the results depend on the processing

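The count of genes above the silent-gene level ran from 10871 (99th percentile) to 13000 (without control replicate 3) over its alternatives, against 12487, and that of list members from 280 to 356, against 334. Of the 30 brightest genes, 18 remained on averaging the probe sets of each gene, 8 with plain _at sets, 29 on the Hlxb9 siRNA arrays and 28 or 29 without 1 control. Under the setting of plain _at sets, genes that have none drop out of every count. Genes with a range of 1 log2 or more, 460 in all, numbered 284 with the mean of probe sets, 192 with an offset of 32 before log2, and 13 to 372 without 1 control. The median SD ran from 0.0803 to 0.188 without 1 control, where each SD is over 2 arrays. Counts of genes on which 1 control departs changed as follows. With the offset, control 1 was higher for 1 and lower for 0, control 2 higher for 0, and control 3 higher for 20 and lower for 54. At a threshold of 0.5 log2, control 1 was higher for 90 and lower for 103, control 2 higher for 44 and lower for 20, and control 3 higher for 995 and lower for 814. Repeated quantile normalization had control 1 lower for 3, and plain _at sets control 2 higher for 1. Causes were not tested, except that an offset shrinks differences of dim genes and a lower threshold admits more genes by construction. On averaging probe sets, 257 of 537 named levels moved by more than their SD, 148 of them by over 1 log2. No paired analysis was possible because 1 group is described and no result comes from a test. Signal over background limits the reading of genes near 4.20.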

Other observations

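Imprinted genes, which are expressed from a single parental copy, were listed after the data had been seen. Of 18 measured, 15 were above the silent-gene level (83.3%, against 68.6% of all genes) and 5 were in the brightest 10.0%. Igf2, a growth factor gene on from the paternal copy, read 13.60, 13.53 and 13.44 on controls 1, 2 and 3. Peg3 read 13.08, 13.10 and 13.29, and Gnas, the gene of a stimulatory G protein subunit, 12.96, 12.86 and 12.67. Nnat and Plagl1 had means of 11.99 and 11.39. Genes of the Dlk1 and Meg3 region differed in spread. Dlk1 had the second largest SD of the ranked genes with a mean above the level, as given above. The noncoding genes Meg3 and Rian, in contrast, read 9.30, 8.96 and 9.62, and 10.31, 10.23 and 9.81. Usp29 read 9.16, 8.89 and 7.51, and on the Hlxb9 siRNA arrays 8.95, 8.87 and 9.24, so its low value was not seen on replicate 3 of that group. Zim1, Sgce and Peg10 were not above the level, at 4.23, 3.78 and 3.15.

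Sex chromosome genes were also listed after the data had been seen. None of the 4 measured was above the level. Xist, the noncoding RNA of the inactive X, read 3.69, 3.99 and 3.95, and its other probe sets read 2.59 to 2.87. The Y genes Eif2s3y, Kdm5d and Uty had means of 3.20, 3.18 and 2.57. Transcripts of the inactive X and of the Y were thus both at the signal of genes taken to be silent, on probe sets whose response was not checked in a positive sample.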
